A study of Mus musculus with 2 samples.

Results

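The Mir17 cluster (miR-17 to miR-92a) and the Mir106b cluster (miR-106b to miR-25) are paralogous sets of microRNA (miRNA) genes, each transcribed as a single precursor RNA, and they were examined here in mouse cerebral cortex. The members were taken by gene name and not by their counts, although earlier results of these data were known at that point. They are Mir17, Mir18, Mir19a, Mir20a, Mir19b-1 and Mir92-1 on chromosome 14, Mir106b, Mir93 and Mir25 on chromosome 5, and Mir92-2 on the X chromosome, which makes 10 of the 2202 genes in the tables. The study sequenced small RNA (size limit 30 nt) from wild-type cortex tissue of strain B6NCrl, in 1 group of 2 libraries numbered as biological replicates 1 and 2. A free-text label calls the tissue female control cortex, while the sex and age fields were left uncollected. Both libraries cite the same donor record. The p-values below set the reads of 1 library against those of the other, so they cover counting error only and hold no estimate of the spread between animals or preparations. With 1 group there was no treatment or genotype to compare, and the comparisons were between genes within a library and between the libraries.

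MiRNAs are short RNAs that guide Argonaute proteins to messenger RNAs, and the seed, bases 2 to 8 of the mature strand, sets most of the target choice. The Mir17 cluster is a transcriptional target of MYC and E2F factors and is known for supporting proliferation and survival of dividing cells, neural progenitors among them. The Mir106b cluster lies inside Mcm7, which encodes a subunit of the helicase that licenses DNA replication. Cortex after birth consists mostly of cells that no longer divide, although the stage of this tissue is not stated, and the question was how much of each cluster is counted there.

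The mature strands usually described as the main products of the members are shown because the seed sorts them into 4 families and because some of them are identical or nearly so. Each is printed from 5′ to 3′ from RefSeq (GRCm38.p6), with the seed in capitals.
miR-17-5p: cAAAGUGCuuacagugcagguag
miR-20a-5p: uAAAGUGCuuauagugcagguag
miR-106b-5p: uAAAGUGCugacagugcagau
miR-93-5p: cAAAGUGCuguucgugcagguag
miR-18a-5p: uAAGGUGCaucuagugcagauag
miR-19a-3p: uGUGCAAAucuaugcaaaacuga
miR-19b-3p: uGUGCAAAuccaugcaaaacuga
miR-92a-3p: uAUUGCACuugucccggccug
miR-25-3p: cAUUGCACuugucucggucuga
The first 4 share the seed AAAGUGC and the last 2 share AUUGCAC. With positions counted from the 5′ end, miR-17-5p differed from miR-20a-5p by C1U and C12U, outside the seed. It differed from miR-93-5p by U10G, A11U, C12U and A13C, also outside it. From miR-18a-5p it differed within the seed, by A4G, and at 5 other positions. MiR-19a-3p and miR-19b-3p differed at 1 position, U11C. MiR-92a-3p differed from miR-25-3p by U1C, C14U and C18U.

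The genes fall in 3 places of the mm10 genome, with coordinates from the GENCODE M21 annotation. The Mir17 to Mir92-1 cluster covers 836 bp on the plus strand of chromosome 14 (115043671 to 115044506), within an exon of the noncoding host gene Mir17hg. The Mir106b, Mir93 and Mir25 genes cover 498 bp on the minus strand of chromosome 5 (138165321 to 138165818). Mir106b lies in an intron in both Mcm7 transcripts that span it, and Mir93 and Mir25 lie in an intron of 2 Mcm7 transcripts and overlap an exon of 1 other. Mir92-2 lies on the minus strand of the X chromosome (52741838 to 52741928) with no annotated host, beside 5 further paralogs that are described below.

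The tables count each gene as a whole, so the 2 arms of a hairpin cannot be told apart, and reads placed at several loci enter no gene's count. Replicate 1 held 4429633 and replicate 2 held 6985784 reads on the sense strand of the annotated genes. Levels are given in CPM, the usual per-megaread scale, with those totals as the base. A count of 0 allows up to 0.677 CPM in replicate 1 and 0.429 CPM in replicate 2, taking 3 counts as the floor, and this covers counting error only. All 10 members had the same count in the unstranded column as in the sense column, with 0 counts on the opposite strand.

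Together the 10 members held 0.277% ± 0.0155 of the counts (SD, n = 2), with 12776 counts in replicate 1 and 18620 in replicate 2. For scale within this tissue, the 3 highest genes of a list of neuronal miRNAs were each counted far above this sum. Mir132, an activity-induced neuronal miRNA, stood at 52078 ± 13446 CPM, Mir598 at 11249 ± 1807 CPM and Mir128-1 at 7392 ± 584 CPM, against 2775 ± 155 CPM for the members summed (SD, n = 2). Of the rest of the list, Mir138-1, Mir138-2 and Mir129-2 also lay above that sum on average. Mir128-2 (1686 CPM) and the Mir124a and Mir9 genes (37.7 CPM or lower) lay below it. Reads matching several of the Mir124a or Mir9 genes equally would not be counted. The median level of the 10 members was 63.0 CPM, beside 3.88 CPM over the 787 genes with a count in either library. Ranks among all 2202 genes ran from 87 for Mir93 to 788 for Mir19a, the rank of every gene at 0.

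The Mir106b cluster was led by Mir93, the highest of the 10 members. Mir93, whose main product carries the miR-17 seed, had 5190 counts in replicate 1 and 9447 in replicate 2, which is 1172 and 1352 CPM. Mir106b, the first gene of the cluster and likewise of the miR-17 seed, had 2047 and 2279 counts, or 462 and 326 CPM. Mir25, the last gene, of the miR-92a seed, had 364 and 558 counts, or 82.2 and 79.9 CPM. Levels therefore did not follow the order of the genes in the precursor, since the middle gene was highest in both libraries. Mir93 made up 68.3% of the counts of the cluster in replicate 1 and 76.9% in replicate 2, while Mir106b made up 26.9% and 18.6%.

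In the Mir17 cluster the last and the first gene held most of the counts. Mir92-1, the last gene, had 3062 counts in replicate 1 and 3667 in replicate 2, or 691 and 525 CPM. Mir17, the first gene and founding member of the family, had 1672 and 2147 counts, or 377 and 307 CPM. These 2 genes made up 61.6% and 33.6% of the counts of the cluster in replicate 1, and 59.2% and 34.6% in replicate 2. Mir20a, which shares the miR-17 seed, was counted much lower, at 44.2 and 45.5 CPM (196 and 318 counts). Mir18, the only member with the miR-18 seed, was at 9.26 and 9.30 CPM (41 and 65 counts). Within the same precursor RNA, the Mir17 count was 8.53 times that of Mir20a in replicate 1 (exact 95% counting interval 7.35 to 9.94) and 6.75 times in replicate 2 (5.999 to 7.62).

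The miR-19 genes were at the floor. Mir19a had 0 counts in both libraries, and Mir19b-1 had 0 in replicate 1 and 2 in replicate 2 (0.286 CPM). The Mir19b-1 count is not a level of miR-19b-3p, since a read matching Mir19b-1 and Mir19b-2 equally would enter neither count. MiR-19 is the family of the cluster best known for its part in mouse lymphoma. Mir92-2, on the X chromosome, had 204 counts in replicate 1 and 137 in replicate 2, or 46.1 and 19.6 CPM, and its levels overlapped those of Mir20a.

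**Figure D1:**
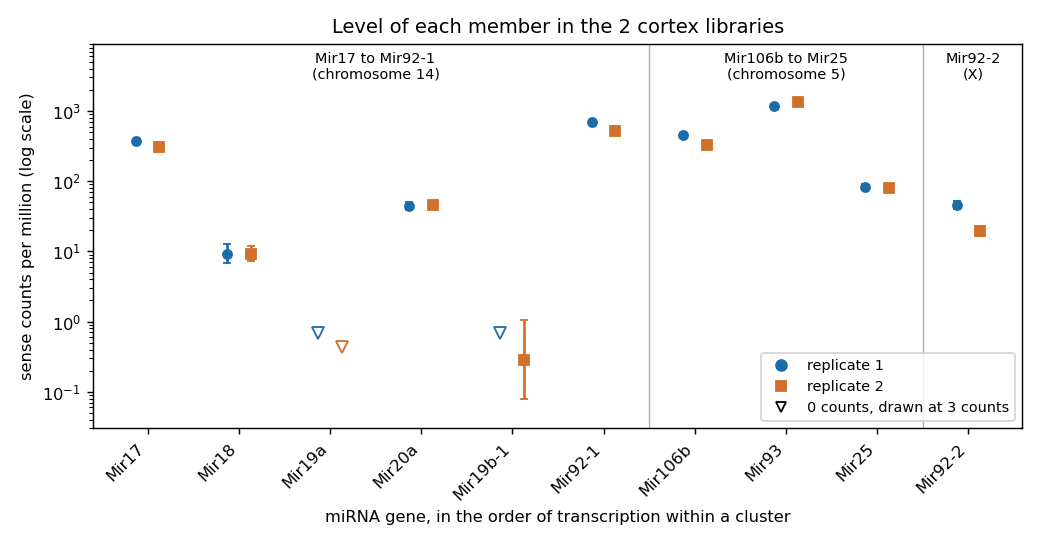
Level of each of the 10 members in replicate 1 (circles) and replicate 2 (squares), in sense CPM on a log axis, with genes in the order of transcription within each cluster. Bars are 95% Wilson counting intervals, and open triangles mark genes with 0 counts, drawn at the level of 3 counts. Mir93 is highest at 1172 and 1352 CPM, and Mir19a and Mir19b-1 lie at the floor.

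In order of mean CPM (± SD, n = 2), Mir93 (1262 ± 128) and Mir92-1 (608 ± 118) came first, and Mir106b (394 ± 96.1) and Mir17 (342 ± 49.6) next. Mir25 (81.0 ± 1.62), Mir20a (44.9 ± 0.901) and Mir92-2 (32.8 ± 18.7) followed. Mir18 (9.28 ± 0.0345), Mir19b-1 (0.143 ± 0.202) and Mir19a at 0 were lowest. Neighbours in this order did not overlap between the libraries, except for 3 pairs. Mir106b and Mir17 overlapped, as did Mir20a and Mir92-2, and Mir19b-1 and Mir19a. A mature miRNA is read from end to end, so counts were not divided by gene length. Divided by the length of the annotated precursor, from 80 to 107 bases, the order of the 10 members was the same.

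Whether a member's main strand is also encoded elsewhere bears on what its count can hold. The mature strand of Mir92-1 and Mir92-2 is the same, miR-92a-3p, and that of Mir19b-1 is also found in the hairpin of Mir19b-2, while the main strands of the other 7 members occur in 1 RefSeq hairpin each. The hairpins of Mir92-1 (chromosome 14) and Mir92-2 (X chromosome) are shown because their longest shared run, in capitals, is 22 bases and contains the whole mature strand.
Mir92-1: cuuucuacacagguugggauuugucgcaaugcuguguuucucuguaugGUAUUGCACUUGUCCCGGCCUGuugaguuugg
Mir92-2: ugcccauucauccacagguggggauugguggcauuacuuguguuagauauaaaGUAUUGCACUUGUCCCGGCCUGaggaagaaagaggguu
The opposite arms, miR-92a-1-5p and miR-92a-2-5p, each occur in 1 hairpin, so their reads can be assigned to a gene. A read of the shared arm that lies within the run of 22 bases cannot. The hairpins differ at the base after the run, so a read that reaches past it could be assigned. Mir92-1 was counted 15.0 times as often as Mir92-2 in replicate 1 (exact 95% counting interval 13.02 to 17.4) and 26.8 times in replicate 2 (22.6 to 32.0). Neither count is a level of miR-92a-3p, and which arm gave the reads is not recorded in the tables. Mir19b-1 shares a run of 25 bases with Mir19b-2, which had 0 counts in both libraries. MiR-19a-3p has no exact copy but lies 1 mismatch from miR-19b-3p. MiR-17-5p likewise lies 1 mismatch, U10A, from miR-106a-5p, and Mir17 was counted at 1672 and 2147. Whether reads of the members are among those placed at several loci was not tested.

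Grouped by the seed of each gene's usual main strand, the miR-17 family held most of the members' counts. These are counts of whole genes with both arms together, so they do not show that the reads came from the main strand. For Mir92-1 and Mir92-2 that strand is shared, and a read matching both genes equally would enter neither count. The same holds for Mir19b-1 and Mir19b-2, so the share of the miR-19 genes is not a level of miR-19b-3p. Mir93, Mir106b, Mir17 and Mir20a together held 71.3% of them in replicate 1 (exact 95% interval 70.5 to 72.1) and 76.2% in replicate 2 (75.6 to 76.8). The miR-92a seed, in Mir92-1, Mir25 and Mir92-2, held 28.4% (27.6 to 29.2) and 23.4% (22.8 to 24.0). Mir18 held 0.321% and 0.349%, and the miR-19 genes 0 and 0.0107%. The intervals of the 2 libraries did not overlap for the seed AAAGUGC or for AUUGCAC, in libraries that also differ in other ways given below.

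The picture changed when all annotated genes with the same seed were added. RefSeq lists 7 mouse genes with a mature strand of seed AAAGUGC, and the 4 members held 99.6% of their counts in replicate 1 and 99.8% in replicate 2. The other 3 were Mir106a (17 and 19 counts), Mir20b (15 and 12 counts) and Mir6383 (0 counts). Seed AUUGCAC is also listed for 7 genes, but there the 3 members held only 10.6% and 12.7% of the counts. Mir92b, a single gene on chromosome 3 (89227116 to 89227198) in neither cluster, held 89.3% and 87.0%, with 30591 counts in replicate 1 and 29840 in replicate 2 (6906 and 4272 CPM). Its main strand, shown because it differs from miR-92a-3p at 2 positions (U10C and G21C) and occurs in 1 RefSeq hairpin, reads as follows.
miR-92b-3p: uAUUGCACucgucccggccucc
The shares of this seed describe reads assigned to 1 gene, and any read that matched Mir92-1 and Mir92-2 equally would be outside them.

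**Figure D2:**
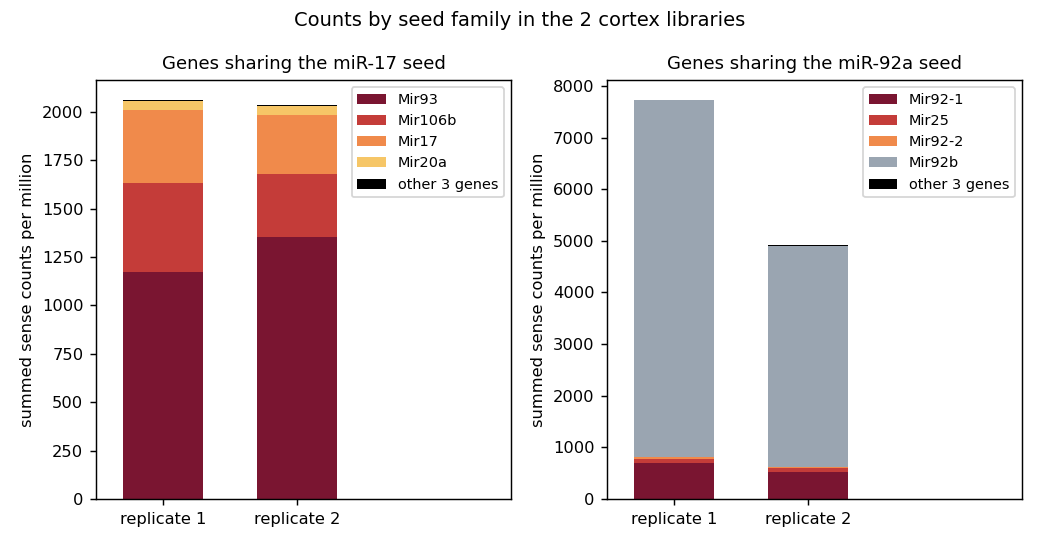
Summed sense CPM of all annotated genes with the miR-17 seed (left) and the miR-92a seed (right), in replicate 1 and replicate 2, stacked by gene. Mir93 is the largest part on the left, and on the right Mir92b, in neither cluster, holds 89.3% and 87.0%, above Mir92-1, Mir25 and Mir92-2.

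The remaining paralogs were counted low. The other 5 genes of the X chromosome cluster that holds Mir92-2 summed to 9.48 CPM in replicate 1 and 7.30 CPM in replicate 2, below Mir92-2 alone. Of these, Mir106a stood at 3.84 and 2.72 CPM, Mir20b at 3.39 and 1.72 CPM and Mir363 at 2.26 and 2.72 CPM. Mir18b had 0 and 1 count and Mir19b-2 had none. Mir32, of the miR-92a seed, stood at 7.90 and 11.9 CPM, and Mir367 had 0 counts. Of 10 matched genes of the Mir290 and Mir302 clusters, which are known from embryonic stem cells and carry a related seed shifted by 1 base in several strands, 8 had a count, and they summed to 2.48 and 2.29 CPM. Mir302a (0 and 6 counts) and Mir294 (4 and 4) were the highest of these, while Mir291a, Mir293, Mir295, Mir302b, Mir302c and Mir302d had 1 to 3 counts over both libraries.

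The clusters were then compared within each library, where no scaling between libraries is needed. The genes of the Mir17 cluster summed to 4971 counts and those of the Mir106b cluster to 7601 in replicate 1, a ratio of 0.654 (exact 95% counting interval 0.631 to 0.678). In replicate 2 the sums were 6199 and 12284, a ratio of 0.505 (0.489 to 0.520). The smaller cluster of 3 genes was thus counted higher than the cluster of 6 in both libraries, with a mean log2 ratio of -0.80 ± 0.26 (SD, n = 2). This is a ratio of reads assigned to 1 gene. Reads matching the X chromosome copies of Mir92-1 or Mir19b-1 equally would be missing from the Mir17 cluster only. The main strands of the Mir106b cluster occur in 1 RefSeq hairpin each. The ratio can therefore understate the Mir17 cluster, by an amount that was not tested. With Mir93 alone left out, the ratio was 2.06 in replicate 1 and 2.19 in replicate 2, the opposite direction. That removal was on 1 side only, since Mir92-1, the highest gene of the Mir17 cluster (61.6% and 59.2% of its counts), was kept. With Mir92-1 and Mir19b-1 left out as well, 1909 and 2530 counts stood against 2411 and 2837 for Mir106b and Mir25. The Mir106b cluster was then again the higher in both libraries. With Mir93 kept and Mir19b-1 and Mir92-1 left out, whose main strands have a copy on the X chromosome, the ratio was 0.251 and 0.206. Taking counts from the Mir17 cluster alone can only lower the ratio, so this is no check on those copies.

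The ratio of the clusters was higher in replicate 1 than in replicate 2 (odds ratio 1.30, 95% interval 1.24 to 1.36, two-sided Fisher's exact test p = 3.59e-27). This test compares the reads of 2 libraries and not conditions. With Mir93 left out and Mir92-1 kept, the log2 odds ratio was -0.084 (p = 0.0862 by the same exact test).

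Paralogous pairs across the clusters differed in size and direction. Mir17 and Mir106b, the first genes of their clusters, were close, with a ratio of 0.817 in replicate 1 (0.765 to 0.872) and 0.942 in replicate 2 (0.888 to 1.00). Mir20a was counted at 0.0378 and 0.0337 of Mir93, although both strands carry the miR-17 seed. Mir92-1 was counted at 8.41 times Mir25 in replicate 1 (7.54 to 9.40) and 6.57 times in replicate 2 (6.01 to 7.20). The chromosome 14 gene was thus the higher of the pair in the miR-92a family, and the chromosome 5 gene in both miR-17 family pairs, closely so for Mir17 and Mir106b in replicate 2.

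**Figure D3:**
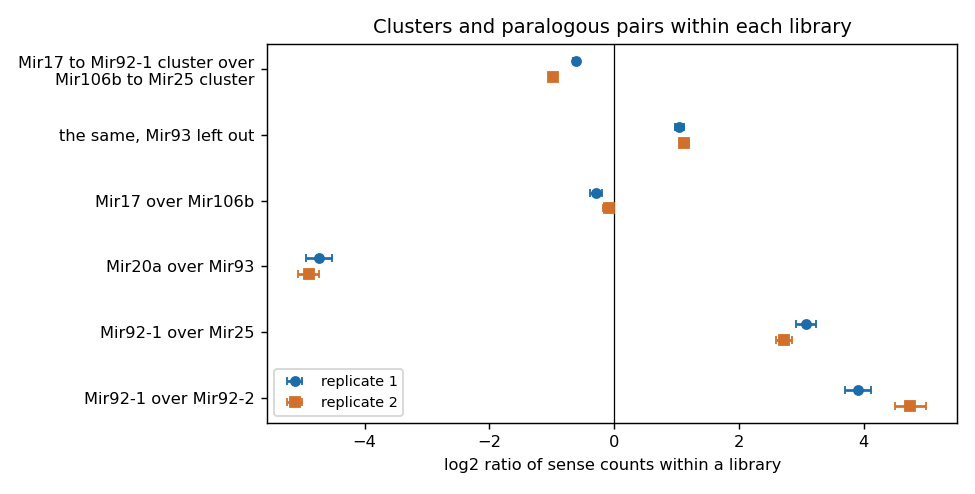
Log2 ratios of sense counts within replicate 1 (circles) and replicate 2 (squares) for the clusters and for pairs of paralogous members, with exact 95% counting intervals. The cluster ratio lies below 0 in both libraries (-0.61 and -0.99) and above 0 without Mir93 (1.04 and 1.13).

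Differences between the libraries were then tested gene by gene, with an exact binomial test, TMM-scaled library sizes and Benjamini-Hochberg adjustment over the 459 genes at a mean of at least 2 CPM. Genes were called at adjusted p below 0.05 when the libraries also differed by a factor of 2 or more. Of the 10 members 8 passed the filter. Mir19a and Mir19b-1 did not. The call rule was met by 1 of the 8, against a background of 19.2% of all genes tested (88 of 459), and at a factor of 1.5 it was the same 1 gene, against 39.4%. The median log2 ratio, replicate 1 over replicate 2, was 0.03 for the 8 members and 0.04 for all genes tested. The median size of the log2 ratio, leaving the sign aside, was 0.22 for the 8 members and 0.52 for all genes tested.

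The called member was Mir92-2, with the levels given above and a log2 ratio of 1.10 (0.78 to 1.42 as exact interval, adjusted p = 9.11e-12 by the exact binomial test). The interval reaches below the ratio limit. It was still called with TMM factors over all genes (1.01). It was not called where a second choice was changed along with those factors, either the unstranded column (0.96) or thinning of the deeper library (0.95). Of all genes tested, 9.59% were called higher in replicate 1, and 20.7% at a factor of 1.5. Mir93 went the other way by a smaller amount, with a log2 ratio of -0.34 (-0.39 to -0.29, adjusted p = 5.24e-43 by the exact test). Mir106b, its neighbour in Mcm7, had a log2 ratio of 0.37 (0.28 to 0.45), opposite in sign to that of Mir93. Mir92-1 stood at 0.26 (0.19 to 0.33) and Mir17 at 0.16 (0.07 to 0.25), which with TMM factors over all genes was 0.07 (adjusted p = 0.173 by the exact test). At an adjusted p under 0.05 alone 5 of the 8 members passed, beside 63.0% of all genes tested. Of the 8 members tested, 4 passed as higher in replicate 1, beside 31.8% of all genes tested, and 1 as higher in replicate 2, beside 31.2%. Mir25 (-0.09), Mir18 (-0.14) and Mir20a (-0.17) did not pass, with intervals from -0.29 to 0.10 for Mir25, -0.74 to 0.44 for Mir18 and -0.44 to 0.09 for Mir20a. The sign of Mir25 turned with library totals (0.04). With a trend on GC content removed Mir25 stood at -0.45 and passed (adjusted p = 7.81e-06 by the exact test), Mir17 stood at 0.45, and the signs of Mir18 and Mir20a turned (0.21 and 0.10). With TMM factors over all genes on the unstranded column, Mir25 (-0.22, adjusted p = 0.0352) and Mir20a (-0.31, adjusted p = 0.0333) passed the exact test and Mir17 did not (0.03, adjusted p = 0.612).

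**Figure D4:**
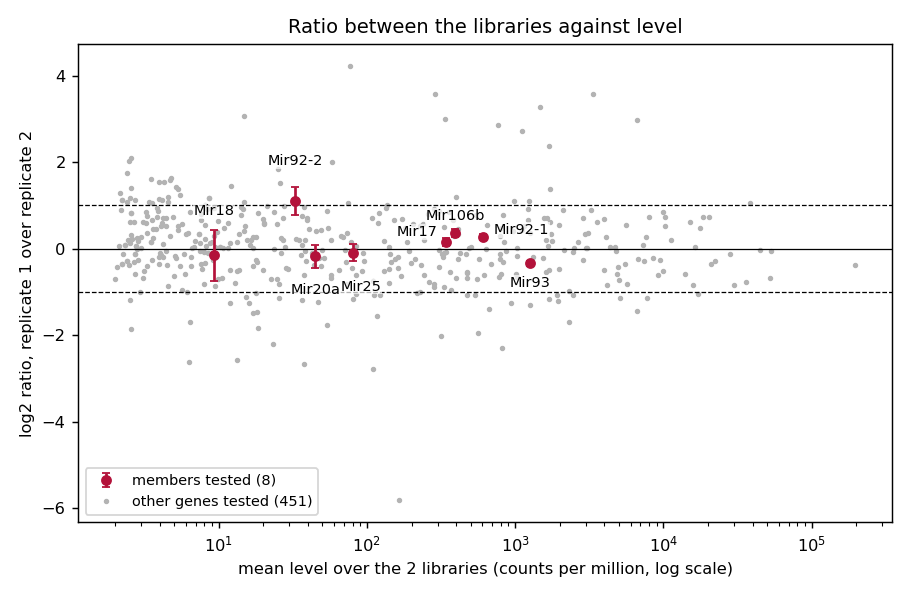
Log2 ratio of replicate 1 over replicate 2 against mean level in CPM (log axis) for the 8 tested members (labelled, with exact 95% counting intervals) and the 451 other genes tested (grey). Dashed lines mark a ratio of 2 in either direction. Mir92-2 lies above the upper line at 1.10 and the other 7 members lie between the lines.

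Other features of the libraries moved at the same time. The common biological coefficient of variation over the 459 genes was 0.418 (edgeR, intercept only). It is the spread between 2 libraries that cite the same donor record, so it is no estimate of the spread between animals. All 6 genes of an epithelial list (the Mir200 family, Mir141, Mir429 and Mir205) were called higher in replicate 1, and the list summed to 12791 CPM in replicate 1 and 1992 CPM in replicate 2. Of 5 choroid plexus genes 4 were called higher in replicate 2, and the list summed to 1173 and 2471 CPM. The endothelial gene Mir126a stood at 1641 and 2948 CPM. The 5 matched leukocyte and microglial genes summed to 1345 and 1942 CPM, with Mir150 the highest, and none was called. Within that list Mir150, Mir146 and Mir155 had log2 ratios of -0.66, -0.69 and -0.62. The low genes Mir142 (20 and 18 counts) and Mir223 (31 and 44 counts) did not share that direction, at 0.67 and 0.02. Their intervals ran from -0.32 to 1.68 and from -0.69 to 0.71. The 3 red blood cell genes summed to 13.3 and 20.3 CPM, of which Mir144 had 3 and 0 counts. Among the red blood cell genes Mir451a was called higher in replicate 2 (8 and 75 counts). Mir486, the highest of that list on average, was not called (10.8 and 9.59 CPM, log2 ratio 0.05). The neuron list had a count in all 13 genes (76497 and 92542 CPM), with the 3 Mir124a genes at 1.94 CPM or lower on average. Of these 13 genes 2 were called higher in replicate 2, Mir9-1 (49 and 449 counts, log2 ratio -2.66) and Mir9-3 (18 and 157 counts, log2 ratio -2.57). Mir132 held most of the sum of the list (42570 and 61586 CPM). The Mir124a and Mir9 genes number 3 each, and a read matching several of them equally would enter none of these counts. Their low counts are therefore not levels of miR-124 or miR-9. The 2 oligodendrocyte genes summed to 7099 and 7841 CPM. The ratio between libraries also rose with precursor GC content, by 0.36 log2 units per 10 percentage points across the 459 genes. The GC content of the members ran from 43.7% for Mir19b-1 to 63.1% for Mir25, and was 47.3% for Mir92-2 and 55.7% for Mir93. With the GC trend removed the log2 ratio was 1.31 for Mir92-2, 0.47 for Mir92-1, 0.22 for Mir106b and -0.43 for Mir93, each with the sign it had before. The part of the marker lists in the members' ratios was not tested.

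The genes with levels most like those of the 3 highest members were taken by distance on log2(CPM + 1) over the 2 libraries, which is a likeness of level only. For Mir93 they were Mir425 (1292 and 1351 CPM, distance 0.140), Mir181b-2 (distance 0.427) and Mir1843b (0.428). For Mir92-1 they were Mir700 (0.220), Mir339 (0.221) and Mir532 (0.363). For Mir106b they were Mir490 (0.0573), Mir1981 (0.0883) and Mir193b (0.0927).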

How the data were processed

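MicroRNA sequencing of mouse cerebral cortex gave 2 libraries. The authors deposited raw read counts per annotated miRNA gene for each, not normalized, in 3 columns (either strand and each strand), on mm10 with GENCODE M21 per the deposited readme text. The labels cite a different adapter trimming document for each library. No source used here gives the aligner or the counter. The first 4 lines of a table name no gene and hold 64.6% of the reads of replicate 1 and 61.8% of those of replicate 2. They were left out of totals and tests. Reads placed at several loci are among them.

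Sense counts were scaled to CPM of all gene lines. Values are mean ± SD over 2 libraries. Shares of all counts in 1 library have 95% Wilson intervals, and ratios and shares within the members have exact (Clopper-Pearson) ones. No molecular identifiers are recorded, so intervals cover counting error only. The binomial test used TMM factors (edgeR 4.0.16, over genes at a mean of at least 2 CPM), with 0.5 counts added to each count for log2 ratios. TMM factors were first computed over all genes. The change to the genes tested was made after the values had been seen, with the Mir92-2 call in view, and both are reported. The test was checked on simulated data. TMM in place of library totals moved all log2 ratios by -0.13. DESeq2 1.42.0 size factors, library totals, no filter, the unstranded column, thinning of the deeper library, a ratio of 1.5 and removal of a GC trend were the alternatives (scipy 1.17.1, Python 3.11.15). The members and lists were chosen with earlier results of these data known. The naming rule covers all members, listed paralogs with a count, the 3 highest neuronal genes and the 3 genes nearest in level to each of the 3 highest members. Other genes named (paralogs at 0 and single genes of the marker lists) were chosen after their values were seen. Of the listed symbols, Mir292a and Mir142hg matched no gene in the tables. Seeds and copies of mature strands were read from RefSeq sequences (GRCm38.p6).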

Additional observations from a re-analysis of the deposited data

Results flagged for a closer look

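Outside all the comparisons above were the reads placed at several loci, which made up 43.9% of all reads of replicate 1 and 47.9% of those of replicate 2. They are singled out as a signal in data outside the gene counts. In both libraries they outnumbered the sense counts of all genes together, at 5486117 reads in replicate 1 and 8750989 in replicate 2. The tables do not say which loci they matched.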

How the results depend on the processing

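Of the 191 values recomputed under an alternative, 166 stayed the same. Ratios between the libraries had to keep their direction and their side of the threshold. Levels, shares and the cluster ratio had to stay within the SD between the libraries, and counts of genes called within 1.5 times. Part of the 166 could not have come out otherwise. With 2 libraries, leaving either replicate out always stays within that SD. The cluster ratio and the shares of the members use the same counts in the unstranded column. The ratio limit of 1.5 leaves the log2 ratios themselves unchanged. Beyond the 166, 18 moved by more, 2 lost a call and 5 reversed. Of those 5, 3 were ratios between the libraries that did not pass the test either way, Mir25 with library totals (0.042) and Mir18 (0.21) and Mir20a (0.096) with the GC trend removed. The summed level of the members was 1189 CPM with all mapped reads as the denominator, in place of 2775, since that denominator is larger by construction. It ran from 2665 to 2884 CPM with either replicate left out. The mean log2 ratio of the clusters (-0.80, and -0.99 to -0.61 with either replicate left out) was -2.14 with Mir19b-1 and Mir92-1 left out, a removal that can only lower it. It was -3.97 as a mean of log2 values over members, which gives Mir19a and Mir19b-1 the weight of any other gene. With Mir93 left out and Mir92-1 kept, an alternative chosen after seeing the data, the mean log2 ratio of the clusters reversed to 1.09. The log2 odds ratio between libraries, 0.37 with Mir93, then reversed to -0.084 (Fisher's exact p = 0.0862). The share of Mir18 in the members' counts was 0.296% per precursor base, in place of 0.335%. The count of genes called was 181 at a ratio of 1.5, in place of 88, and 65 to 95 under the other alternatives. Mir92-2 was the 1 member called under each alternative that changed a single choice, with log2 ratios from 1.01 to 1.31. TMM over all genes, the scaling used first and replaced after its values had been seen, gave 1.01 and 84 genes called (36 higher in replicate 1 and 48 in replicate 2). Combined with the unstranded column or with thinning it gave 0 members called, with Mir92-2 at 0.96 (adjusted p = 2.37e-09 by the exact binomial test) and 0.95 (adjusted p = 1.99e-07), under the ratio limit. With library totals 64 genes were called higher in replicate 1 and 31 in replicate 2, in place of 44 and 44. No paired analysis was possible because there is only 1 group. The 2 miR-19 genes lie at or under 3 counts, and the cause was not tested.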

Other observations

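How often a gene is counted was also described over the whole tables, by whether a mature strand is found elsewhere. This grouping was chosen after the values were seen, and no test was made. Of the 2202 genes, 1018 matched a RefSeq mature sequence. Among the 95 with an arm found exactly in another hairpin, Mir19b-1, Mir92-1 and Mir92-2 among them, 38 had 0 counts in both libraries and 47 reached a mean of 2 CPM. Among the 28 with no exact copy but an arm within 1 mismatch of another mature miRNA, Mir17 and Mir19a among them, 4 had 0 counts and 22 reached 2 CPM. Among the 895 genes with neither, 304 had 0 counts and 345 reached 2 CPM. Median levels in these groups were 1.35, 480 and 0.636 CPM in that order. Mir19a is thus 1 of 4 genes of its group at 0.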
